A study of Mus musculus with 5 samples.

Results

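This account concerns 30 genes of chromatin modifiers and remodellers in mouse bone marrow mesenchymal stem cells (MSC). They were chosen by symbol: 19 gene families were searched (Kdm, Kmt, Kat, Hdac, Sirt, Smarc, Arid, Chd, Brd, Setd, Phf, Ing, Cbx, Tet, Dnmt, Mbd, Ezh, Jmjd and the Ino80 subunits), and a gene was taken where a probe set with that single symbol stood in the deposited table. The search found 32 of the 2190 genes in the table. Of these, Katna1 and Katnbl1 match the letters Kat but encode katanin, a microtubule-severing protein, so they are given apart at the end. The 30 remaining genes came from 13 of the 19 families. None of the Kmt, Cbx, Tet, Mbd or Jmjd families, and no acetyltransferase of the Kat family, was in the table. RefSeq lists 167 mouse genes with such symbols, so 137 of them were not analysed here.

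Primary MSC grown from mouse bone marrow were measured on 5 Affymetrix arrays. MSC alone were represented by 3 biological replicates and co-cultured MSC by 2. The co-cultured MSC shared a transwell dish for 48 h with T cells stimulated through CD3 and CD28, 10 T cells to each MSC, with a porous membrane between the cells. The labels give no strain, age, sex or passage and name no genetic change.

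Chromatin proteins set which genes a cell can read. Enzymes called writers add acetyl or methyl groups to histones or DNA, erasers remove them, readers bind the marks through bromodomains, PHD fingers or chromodomains, and remodellers use ATP to move nucleosomes. In marrow stromal cells such proteins take part in the choice between bone, fat and cartilage fates and in the response to inflammatory signals.

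More of the chromatin genes were higher than lower in co-culture, and most of the differences were small. Of the 30 genes 20 rose and 10 fell, so 66.7% were higher, against 48.3% higher and 51.7% lower among all 2190 genes. The median difference was 0.73 on the log2 scale. The median size without regard to sign was 0.89, against 1.13 over all genes. At least 2-fold differences were found in 8 that rose and 3 that fell. That is 36.7% of the chromatin genes, against 61.4% of all genes (26.3% higher and 35% lower). By far the largest difference between group means was that of Phf11d, at 15.2-fold, and the next was that of Kdm5b, at 2.76-fold. These shares describe the genes in the table and give no test of the families.

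Differences are limma estimates in log2 units, co-culture minus MSC alone, each with its moderated standard error (SE). The deposited table holds only probe sets in which both co-culture arrays lie on one side of every array of MSC alone, so non-overlap of the groups is a property of the table. All 32 genes found by symbol passed an adjusted p of 0.05 in limma, and so did 100% of the 2190 genes. The adjusted p of the 32 genes ran from 0.00118 to 0.0154 in limma. When limma's adjustment assumed 15 times as many genes, 3 of the 32 passed, namely Phf11d, Katna1 and Setdb2, against 8.63% of all genes. All 3 had risen (4.61% of all genes rose by this measure and 4.02% fell). Of the 10 genes that fell, 0 passed. Each of the 10 had an unadjusted p below 0.05 in limma, but so did 100% of the 2190 genes. Ranges of adjusted p over alternatives, given below, cover every alternative except the adjustment for 15 times as many genes. One of these, without the dimmest 25% of probe sets, tested 1735 genes and measured 24 of the 32. Bulk RNA does not separate fewer cells of a kind from less RNA in each cell.

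**Figure D1:**
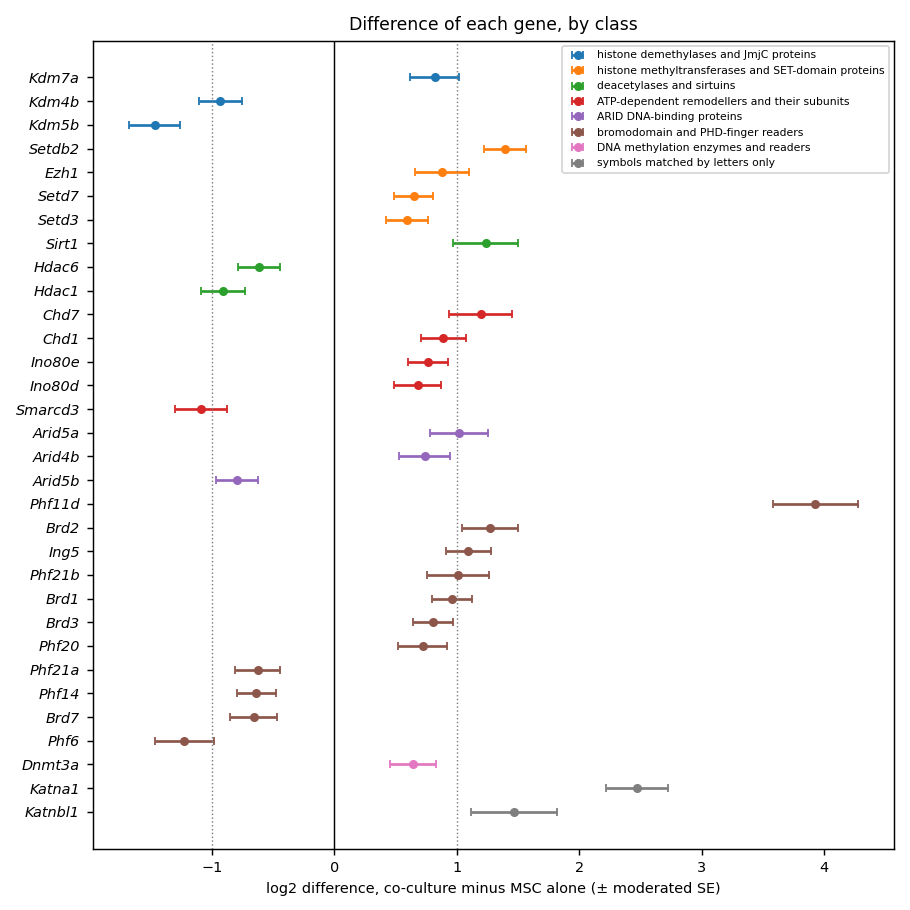
Log2 difference of each gene found by symbol, co-culture minus MSC alone, with its moderated SE as the bar and colours for the classes; dotted lines mark 2-fold. Phf11d stands apart at 3.93, and the other chromatin genes lie between -1.47 and 1.40.

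**Figure D2:**
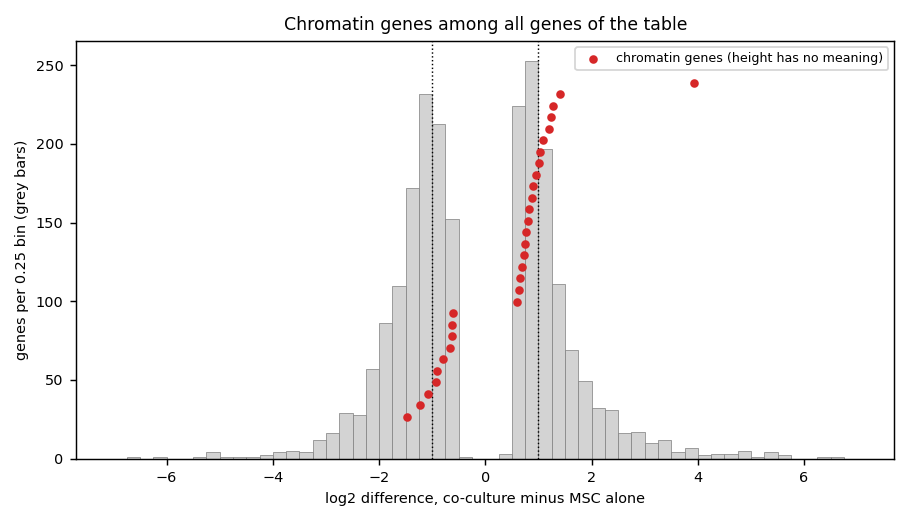
Histogram of the log2 differences of all 2190 genes, with the 30 chromatin genes as red points at arbitrary height. No gene has a difference near 0, because of how the table was selected, and 19 chromatin genes lie between the 2-fold lines.

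The 11 readers held the largest change. Of these 7 rose and 4 fell, with a median of 0.81. Phf11d encodes a PHD-finger protein of a small cluster of similar genes. It read 7.04, 7.49 and 6.85 in replicates 1 to 3 of MSC alone, and 11.55 and 10.56 in replicates 1 and 2 of co-culture, the order kept below. The rise was 3.93 ± 0.35, or 15.2-fold (adjusted p 0.00118 in limma), and it ranked 24 among all rises in the table. Co-culture replicate 1 was the higher of the pair, and replicate 2 still stood 3.07 above the highest array of MSC alone. The similar genes Phf11a, Phf11b and Phf11c may share probe sequence, so the value is uncertain as to the family member.

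Brd2, Brd3 and Brd1 carry bromodomains, which bind acetylated lysines. Brd2 and Brd3 belong to the BET family, whose members bring transcription elongation factors to acetylated chromatin, and Brd1 is a scaffold of acetyltransferase complexes. Brd2 was the brightest of the chromatin genes and read 10.57, 10.67 and 10.19 in MSC alone and 11.56 and 11.94 in co-culture, a rise of 1.27 ± 0.23 or 2.42-fold. MSC replicate 3 was its lowest array and co-culture replicate 2 its highest. Brd1 rose by 0.96 ± 0.17 and Brd3 by 0.81 ± 0.17. Ing5, a PHD-finger subunit of acetyltransferase complexes, read 5.51, 5.66 and 5.84 in MSC alone and 6.71 and 6.82 in co-culture. The rise was 1.09 ± 0.18, or 2.14-fold, and the co-culture arrays were nearly equal.

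Phf21b rose by 1.01 ± 0.26 from a low mean of 3.69, and Phf20, a subunit of an acetyltransferase complex, rose by 0.72 ± 0.20. The Phf21b paralogue Phf21a, a subunit of the CoREST demethylase and deacetylase complex, moved the other way and fell by 0.63 ± 0.18. Phf6, an X-linked gene whose human counterpart is mutated in a syndrome of intellectual disability, read 7.03, 7.30 and 7.37 in MSC alone and 6.30 and 5.72 in co-culture. It fell by 1.22 ± 0.24, a factor of 2.34, with co-culture replicate 2 the lowest array. Brd7, a SWI/SNF subunit, read 4.45, 4.16 and 4.36 in MSC alone and 3.80 and 3.53 in co-culture and fell by 0.66 ± 0.19. Phf14, a PHD-finger protein, read 4.23, 4.20 and 4.12 in MSC alone and 3.56 and 3.52 in co-culture and fell by 0.64 ± 0.16. Both lay at low levels in every array, where RMA compresses differences and no detection call was made.

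Among these readers 3 calls depended on 1 array. Without MSC replicate 1 Phf21a fell by 0.61 and Brd7 by 0.60, without MSC replicate 2 Phf21a fell by 0.54, and without co-culture replicate 2 Phf21a fell by 0.60, Brd7 by 0.52 and Phf20 rose by 0.53, each with an adjusted p above 0.05 in limma. Over the alternatives the adjusted p in limma ran from 0.0127 to 0.0579 for Phf21a, from 0.013 to 0.0629 for Brd7 and from 0.00767 to 0.0596 for Phf20.

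The 4 SET-domain genes in the table all rose, with a median of 0.76. Setdb2 belongs to a group of methyltransferases linked to gene silencing and is known from macrophages as a gene that interferon induces. It read 7.16, 6.94 and 6.98 in MSC alone and 8.48 and 8.36 in co-culture. The rise was 1.40 ± 0.17, or 2.63-fold (adjusted p 0.00251 in limma), and the co-culture arrays differed by less than the gap of 1.21 between the groups. Ezh1 encodes a catalytic subunit of Polycomb repressive complexes. It read 3.87, 4.13 and 3.65 in MSC alone and 4.60 and 4.92 in co-culture, a rise of 0.88 ± 0.22 at low levels. Setd7, a methyltransferase of histone and other proteins, read 4.46, 4.49 and 4.42 in MSC alone and 5.07 and 5.14 in co-culture. The rise was 0.65 ± 0.16, or 1.57-fold, with little spread in either group but at low levels, where RMA compresses differences. Setd3, which methylates actin rather than chromatin, rose by 0.60 ± 0.17. Without MSC replicate 1 the rise of Setd3 was 0.57 and without co-culture replicate 2 it was 0.54, both with an adjusted p above 0.05 in limma (from 0.00735 to 0.0571 over the alternatives).

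Setdb2 and Phf11d, the chromatin genes that also passed the stricter adjustment, are neighbours. In the RefSeq annotation of GRCm38.p6 they lie on chromosome 14. The stretch that the pair spans holds 2 other gene models, Phf11c and Gm45935, of which Gm45935 carries the synonym Setdb2-phf11c. A gene model in this stretch can overlap either gene of the pair. Their promoter windows are printed to show how unlike these neighbours are at their starts. Each window runs from 250 bases before to 50 bases after a RefSeq gene start, 5′ to 3′ on the gene's strand. Both genes are on the minus strand, Phf11d with the window chr14:59365441-59365740 and Setdb2 with chr14:59440831-59441130. Capitals mark matches, on either strand, to the interferon-stimulated response element core GAAANNGAAA, to the gamma-activated site core TTCNNNGAA, or to GAAANGAAA, a repeat with a shorter spacer that was added after the Phf11d window had been read.
Phf11d: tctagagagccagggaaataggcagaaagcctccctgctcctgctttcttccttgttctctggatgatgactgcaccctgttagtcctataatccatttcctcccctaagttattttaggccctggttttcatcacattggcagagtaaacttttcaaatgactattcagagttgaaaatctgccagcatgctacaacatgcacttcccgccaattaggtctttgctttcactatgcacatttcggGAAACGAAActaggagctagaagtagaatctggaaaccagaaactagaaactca
Setdb2: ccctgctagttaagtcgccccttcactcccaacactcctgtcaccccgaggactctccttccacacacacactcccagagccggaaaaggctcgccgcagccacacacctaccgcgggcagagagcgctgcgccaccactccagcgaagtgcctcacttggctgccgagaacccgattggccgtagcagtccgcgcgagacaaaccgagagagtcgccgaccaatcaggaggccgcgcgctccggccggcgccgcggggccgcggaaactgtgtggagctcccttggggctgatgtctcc
The Phf11d window held 3 CpG dinucleotides and 43.3% G and C, and the Setdb2 window held 29 and 66.3%. The Phf11d window had 1 match to GAAANGAAA, which starts at position -4 from the gene start, and no match to the other motifs. The Setdb2 window had no match to any of them.

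The search covered the windows of 24 of the 30 chromatin genes, 32 windows in all. GAAANNGAAA was found in 2 of them, those of Arid4b and Brd7 (6.25%, against 3.44% of 32851 RefSeq windows). TTCNNNGAA was found in 4, those of Arid4b, Arid5b, Brd2 and Setd7 (12.5% against 8.3%), and GAAANGAAA in 1 (3.12% against 3.17%). Of these genes Arid4b, Brd2 and Setd7 rose, while Brd7 and Arid5b fell. The median window of the chromatin genes held 64.5% G and C, against 52.7% over all windows. A match is a run of letters and says nothing of binding.

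Of the 3 demethylase genes 2 fell and 1 rose. Kdm5b, whose product removes methyl groups from a histone mark of active promoters, had the largest fall of the chromatin genes. It read 6.96, 6.96 and 7.16 in MSC alone and 5.80 and 5.32 in co-culture. It fell by 1.47 ± 0.21, a factor of 2.76 (adjusted p 0.00373 in limma). The arrays of MSC alone lay close together, and co-culture replicate 2 was the lower of the pair. Its probe set is of the _s_at type, which can bind related transcripts, so the value is uncertain. Kdm4b, which acts on a mark of silent chromatin, read 7.45, 7.59 and 7.40 in MSC alone and 6.46 and 6.64 in co-culture and fell by 0.93 ± 0.17. Kdm7a, an eraser of repressive marks, read 8.22, 8.30 and 8.33 in MSC alone and 8.88 and 9.33 in co-culture and rose by 0.82 ± 0.20. Its lower co-culture array stood 0.55 above the highest array of MSC alone.

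Of the 3 deacetylase genes the sirtuin rose and both Hdac genes fell. Sirt1, the NAD-dependent nuclear sirtuin, read 6.92, 6.67 and 7.09 in MSC alone and 7.78 and 8.48 in co-culture. The rise was 1.24 ± 0.27, or 2.36-fold, and its co-culture arrays lay about as far apart as the gap of 0.69 between the groups. Hdac1, a zinc-dependent deacetylase of several corepressor complexes, read 9.83, 9.72 and 9.66 in MSC alone and 8.98 and 8.68 in co-culture and fell by 0.91 ± 0.18. Hdac6, a mainly cytoplasmic enzyme that deacetylates tubulin, read 8.47, 8.38 and 8.59 in MSC alone and 7.93 and 7.81 in co-culture. It fell by 0.61 ± 0.17, less than Hdac1. The other 9 Hdac and 6 Sirt genes listed by RefSeq were not analysed here.

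Of 5 remodeller genes 4 rose and Smarcd3 fell. Chd7, a chromodomain helicase whose human counterpart is mutated in CHARGE syndrome, read 6.81, 7.13 and 6.50 in MSC alone and 7.78 and 8.23 in co-culture, a rise of 1.20 ± 0.26. Chd1, a helicase tied to transcribed genes, read 6.68, 6.63 and 6.36 in MSC alone and 7.53 and 7.37 in co-culture. The rise was 0.89 ± 0.19, or 1.86-fold, and MSC replicate 3 was the lowest array for both helicases. Ino80e and Ino80d are accessory subunits of the INO80 remodeller. Ino80e read 7.83, 7.74 and 7.71 in MSC alone and 8.50 and 8.56 in co-culture and rose by 0.77 ± 0.16. Ino80d rose by 0.68 ± 0.19; without MSC replicate 1 it rose by 0.63 and without co-culture replicate 2 by 0.53, with an adjusted p above 0.05 in limma (from 0.00788 to 0.0613 over the alternatives). Smarcd3, a SWI/SNF subunit best known from heart and muscle, read 7.16, 7.06 and 7.25 in MSC alone and 6.32 and 5.82 in co-culture. It fell by 1.09 ± 0.21, a factor of 2.13, again lowest in co-culture replicate 2.

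The ARID genes encode proteins with an AT-rich interaction domain. Arid5a, which also binds and stabilises Il6 mRNA, read 6.47, 6.11 and 6.48 in MSC alone and 7.63 and 7.12 in co-culture. The rise was 1.02 ± 0.24, or 2.03-fold. Its paralogue Arid5b, which takes part in fat and cartilage development, read 9.61, 9.58 and 9.36 in MSC alone and 8.74 and 8.71 in co-culture and fell by 0.79 ± 0.17. The fitted differences of the paralogues had opposite signs. Arid4b, a subunit of the Sin3 corepressor complex, read 5.29, 5.43 and 4.97 in MSC alone and 5.88 and 6.06 in co-culture and rose by 0.74 ± 0.21. Without co-culture replicate 2 it rose by 0.65 with an adjusted p of 0.0551 in limma (from 0.00723 over the alternatives).

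The promoter windows of the opposed paralogues are shown because they differ in composition and in the motifs searched, with capitals as above. That of Arid5a is chr1:36307483-36307782 on the plus strand and that of Arid5b chr10:68278677-68278976 on the minus strand of GRCm38.p6.
Arid5a: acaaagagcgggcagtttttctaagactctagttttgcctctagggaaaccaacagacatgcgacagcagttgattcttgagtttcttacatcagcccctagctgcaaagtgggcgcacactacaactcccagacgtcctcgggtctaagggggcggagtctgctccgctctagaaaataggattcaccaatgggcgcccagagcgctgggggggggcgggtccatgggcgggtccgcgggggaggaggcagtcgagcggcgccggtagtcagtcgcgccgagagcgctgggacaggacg
Arid5b: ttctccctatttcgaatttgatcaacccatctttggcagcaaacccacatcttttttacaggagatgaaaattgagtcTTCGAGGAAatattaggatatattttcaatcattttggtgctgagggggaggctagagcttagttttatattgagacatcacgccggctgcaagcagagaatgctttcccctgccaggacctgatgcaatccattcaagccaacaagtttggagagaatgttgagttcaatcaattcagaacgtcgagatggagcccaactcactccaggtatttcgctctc
The Arid5a window held 22 CpG dinucleotides and no match. The Arid5b window held 7 CpG dinucleotides and 1 match to TTCNNNGAA, which starts at position -172 from the gene start.

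Of the genes that add or remove methyl groups on DNA, the table held Dnmt3a, which sets new methylation. It read 5.38, 5.46 and 5.52 in MSC alone and 5.90 and 6.29 in co-culture. The rise was 0.64 ± 0.19, or 1.56-fold. Without MSC replicate 1 the rise was 0.61 and without co-culture replicate 2 it was 0.45, and the adjusted p in limma, from 0.00953 to 0.0727 over the alternatives, was then above 0.05.

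**Figure D3:**
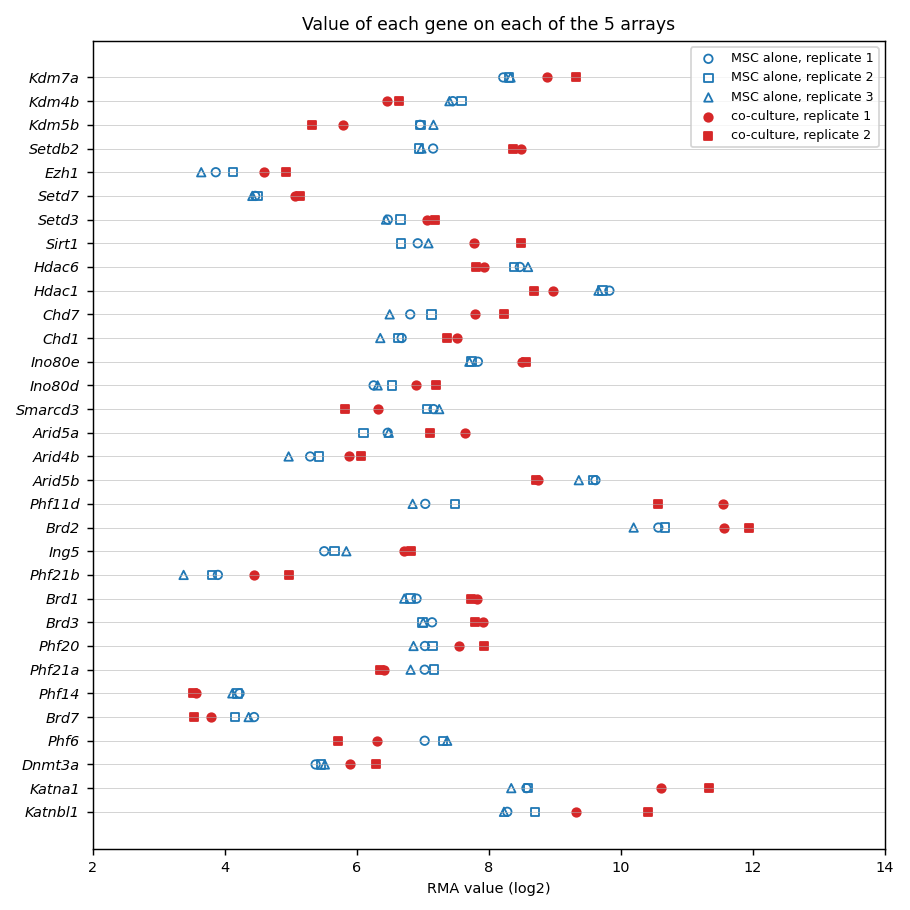
RMA value in log2 units of each gene on each array, with open blue symbols for MSC alone and filled red symbols for co-culture. The groups do not overlap for any gene, as in the whole table, and Brd2 is the brightest chromatin gene.

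The arrays shared an order across many of these genes. Co-culture replicate 2 lay further from MSC alone than replicate 1 in 23 of the 30 genes (76.7%, against 73.7% of all genes), with Phf11d, Setdb2 and Arid5a among the exceptions. MSC replicate 3 was the control furthest from co-culture in 16 of 30 (53.3% against 49.7%). The median SD of MSC alone was 0.14 over the chromatin genes and 0.21 over all genes. The shares for the chromatin genes were close to those of the table.

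Where one of the 30 genes had more than 1 probe set in the table, those probe sets moved the same way. Probe sets without separated groups are not in the table, so agreement over all probe sets of the array was not tested. No such count was made over the 588 genes with more than 1 probe set. Brd2 rose by 1.27 ± 0.23 (SE) in its brighter probe set and by 1.12 ± 0.26 in the other. The probe sets of Kdm7a rose by 0.82 ± 0.20, 1.04 ± 0.26 and 0.87 ± 0.22, and those of Ezh1 by 0.88 ± 0.22 and 1.07 ± 0.18. For Phf6 the size depended on the probe set, and its probe sets had nearly equal means over the 5 arrays. The one used here fell by 1.22 ± 0.24 and the other fell by 1.94 ± 0.33. The second Phf6 probe set read 7.57, 7.23 and 7.75 in MSC alone and 6.06 and 5.09 in co-culture.

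**Figure D4:**
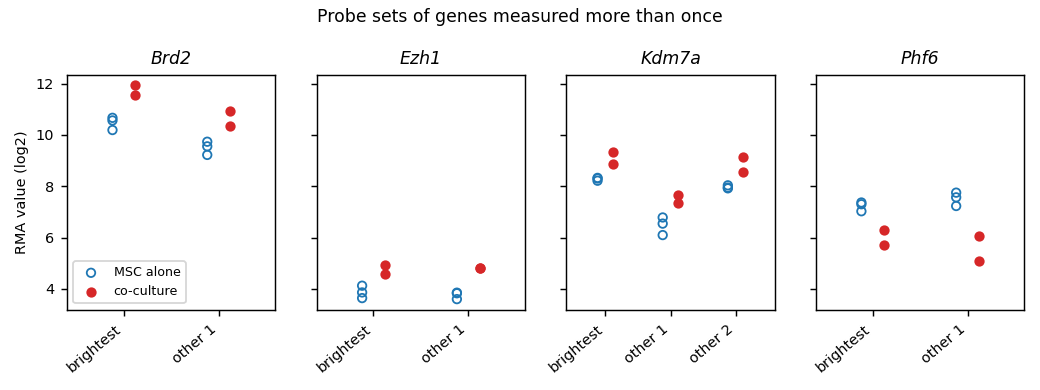
RMA value in log2 units of every probe set in the table of the genes with more than 1 there. Open blue is MSC alone and filled red is co-culture, with the probe set used in the text first. Each probe set moves in the direction of its gene, and the second Phf6 probe set shows the widest gap.

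Chromatin genes with other symbols were read from 8 lists of 254 genes, of which 48 were in the table, 29 higher and 19 lower (60.4% higher, against 48.3% of all genes). At least 2-fold differences were found in 33.3% of the 48, against 61.4% of all genes, and 2.08% passed the adjustment for 15 times as many genes, against 8.63%. Of the 48, 11 lost their call in at least 1 of the alternatives, the adjustment for 15 times as many genes apart. No such count was made over all genes. Of 26 listed acetyltransferases and coactivators only 6 stood in the table. All 6 rose, led by the steroid receptor coactivator Ncoa3 (0.95 ± 0.24) and the SAGA subunit Sgf29 (0.84 ± 0.20). Jade2, a subunit of acetyltransferase complexes that was not in this list, was in the table and fell by 1.22 ± 0.30. Of 31 listed methyltransferases only 3 stood in the table, and all 3 rose, with Nsd2 at 1.38 ± 0.26 and Nsd3 at 0.80 ± 0.20. Among MLL/COMPASS partners 2 of 4 rose: the core subunit Wdr5 rose by 0.66 ± 0.18 and Cxxc1 by 0.51 ± 0.16, while Hcfc2 fell by 1.31 ± 0.28 and Psip1 fell by 0.59 ± 0.16. Without MSC replicate 1 Cxxc1 rose by 0.49 and Psip1 fell by 0.56, and Cxxc1 rose by 0.54 without MSC replicate 2 and by 0.44 without co-culture replicate 2, with adjusted p from 0.0514 to 0.0768 in limma. Over the alternatives the lowest adjusted p were 0.00944 and 0.0111. Of 7 Polycomb partners 4 rose. Asxl2 rose by 1.99 ± 0.38 from low levels, 3.85, 4.91 and 4.45 in MSC alone, and Pcgf1 rose by 0.89 ± 0.24. Jarid2, a cofactor of the methyltransferase complex, fell by 1.38 ± 0.24, followed by L3mbtl3, which fell by 1.20 ± 0.21. Without co-culture replicate 2 Pcgf1 rose by 0.66 with an adjusted p of 0.0583 in limma (from 0.00624 over the alternatives).

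Of 3 corepressor partners Tbl1xr1 fell by 1.26 ± 0.17, Mta3 fell by 0.97 ± 0.20 and Mideas rose by 1.08 ± 0.26 from a low mean of 4.29. Remodeller partners were evenly divided, 5 against 5. Baz1a rose by 0.97 ± 0.18 and Dpf2 by 0.97 ± 0.20, and Zranb3, a helicase of replication forks, fell by 1.56 ± 0.29 and Hells, which supports DNA methylation, fell by 1.06 ± 0.19. In the list of DNA methylation partners and heterochromatin 3 of 5 fell. Uhrf1, which guides maintenance methylation at replication, fell by 2.05 ± 0.41 and Atf7ip fell by 1.59 ± 0.36, while Trim33 rose by 1.03 ± 0.27 and Morc3 by 0.84 ± 0.20. The third that fell, Smchd1, which acts in X inactivation, fell by 0.54 ± 0.17, but its probe sets disagree: averaged, they gave 0.04 (adjusted p 0.8 in limma). With arrays centred on their medians, without co-culture replicate 1, and without MSC replicate 1 or 2, its adjusted p in limma ran from 0.0544 to 0.068 (from 0.0185 over the alternatives). Of 10 histone chaperone and variant genes 6 rose, led by Daxx (1.94 ± 0.20) and Nasp (1.89 ± 0.33, from a low mean of 5.23). Anp32e fell by 1.44 ± 0.31 and Ubn2 fell by 0.84 ± 0.21. The probe sets of Ubn2 disagree: averaged, they gave 0.02.

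**Figure D5:**
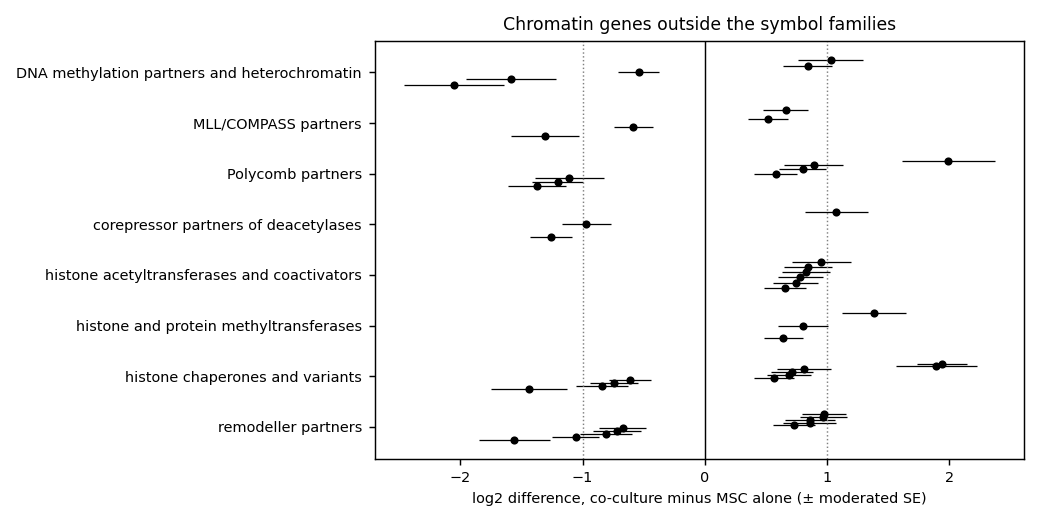
Log2 difference of 48 chromatin genes with other symbols, co-culture minus MSC alone, by list, with moderated SE as bars and dotted lines at 2-fold. All 6 genes of the list of acetyltransferases and coactivators lie above 0, and Uhrf1 has the lowest value, -2.05. Jade2, which fell, was in none of these lists and is not shown.

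Genes of the marker lists that stood in the table differed in both directions, apart from the macrophage pair. Of 15 proliferation markers 6 were in the table: Mki67 fell by 2.39 ± 0.33, Ccna2 fell by 2.75 ± 0.39, Rrm2 fell by 3.17 ± 0.40 and Mcm6 fell by 1.36 ± 0.20, and Cdt1 rose by 1.63 ± 0.33 and Ccne1 by 1.34 ± 0.33. With an ordinary linear model in limma, Ccne1 had an adjusted p of 0.0508 (from 0.00264 over the alternatives). The mean level of the 6 ran from 8.67 to 9.10 in MSC alone and from 7.48 to 7.97 in co-culture. Of 12 MSC markers 6 were in the table. Pdgfra rose by 3.77 ± 0.70 and Vcam1 by 2.91 ± 0.18. Cd44 fell by 0.86 ± 0.20, Alcam fell by 1.08 ± 0.21, Pdgfrb fell by 2.55 ± 0.44 and Cxcl12 fell by 3.52 ± 0.55. The mean level of these MSC markers ran from 9.19 to 9.30 in MSC alone and from 8.93 to 9.11 in co-culture. That mean hides the large opposite differences. Of 10 macrophage markers Mpeg1 and Ctss were in the table, both higher, with a mean level from 3.74 to 4.24 in MSC alone and from 7.35 to 8.03 in co-culture. None of 12 T cell or 4 endothelial markers was in the table, so those cells were not analysed here. The part of these markers in the results on chromatin genes was not tested.

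The katanin genes rose more than most chromatin genes. Katna1, the severing subunit, read 8.57, 8.59 and 8.34 in MSC alone and 10.61 and 11.33 in co-culture, a rise of 2.47 ± 0.26 or 5.55-fold (adjusted p 0.00163 in limma). Katnbl1, a regulatory relative, read 8.28, 8.70 and 8.23 in MSC alone and 9.33 and 10.42 in co-culture. The rise was 1.47 ± 0.35, or 2.77-fold, with co-culture replicate 2 well above replicate 1.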

How the data were processed

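Total RNA of 5 cultures was labelled with biotin and hybridised to Affymetrix arrays. The authors summarised probe sets as log2 values by RMA (no version stated), per the submitters' processing notes. This method corrects background, quantile-normalises arrays and gives no detection call, so low values are compressed. The table holds 3373 probe sets, of which 3013 have 1 gene symbol, 69 several and 291 none listed. Symbols came from the platform annotation and were checked against RefSeq (GRCm38.p6), which changed 0. The table is selected for separated groups by a rule not given in the sources used here, so spreads may be too small and differences too large.

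One probe set stood for a gene, that with the highest mean over the 5 arrays. limma 3.58.1 under R 4.3.3 (lmFit, eBayes, two-sided, no covariates, no filter) was fitted over all 2190 genes with Benjamini-Hochberg adjustment. The fit was tested on simulated data. The number of arrays limits the precision. Replicates are labelled biological repetitions, and no scan date or batch is given.

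The genes and lists were chosen with earlier results of these data known. All chromatin genes are named. Per-array values are given, in replicate order, for up to 3 genes in each direction and class with the largest differences, and up to 2 genes in each direction of the other lists are named. Promoter sequences are RefSeq's, read with Python 3.11.15.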

Additional observations from a re-analysis of the deposited data

How the results depend on the processing

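All 32 genes found by symbol kept their direction in every alternative that measured them, and no alternative moved a fold of theirs by over 1.5 times. Calls of 25 of them held in every alternative that measured them, the adjustment for 15 times as many genes apart. The other 7 lost theirs in 1 to 3 settings that left out an array. No such count was made over all genes. Without each array of MSC alone in turn, 19 to 22 of the 32 passed in limma and were higher, and 8 to 10 passed and were lower. Without MSC replicate 1, 27 of the 32 passed, against 2053 of all 2190 genes. Without MSC replicate 2, 31 passed, against 2129 of all genes. Without MSC replicate 3, all 32 and all 2190 passed. Where 1 co-culture array remained, it was assumed to vary like the others. Adjusted as if 15 times as many genes had been tested, 3 of the 32 passed and were higher, and 0 passed and were lower. Over all genes 101 passed and were higher and 88 passed and were lower. The differences themselves stayed as they were, because only the number of tests changed. All 10 that fell had an unadjusted p below 0.05 in limma, as did all 2190 genes, so this lends the falls no support.

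Centring each array on its median raised every difference by 0.16. The table's 2-fold split turned from 577 higher and 767 lower to 723 and 621, and that of the 32 genes from 10 and 3 to 13 and 2. Class medians became -0.77 for demethylases, 0.93 for SET-domain genes, -0.45 for deacetylases, 0.93 for remodellers, 0.90 for ARID genes and 0.97 for readers. Without the dimmest 25% of probe sets 24 of the 32 remained, and the medians were 1.00 for SET-domain and 0.11 for ARID genes, with fewer genes in each. Those left out were Arid4b, Brd7, Dnmt3a, Ezh1, Ing5, Phf14, Phf21b and Setd7. Asxl2, Mideas and Nasp were among the genes of the other lists left out there. Left-out arrays gave class medians from -1.02 to -0.84 for demethylases, 0.67 to 0.86 for SET-domain genes, 0.61 to 0.84 for ARID genes, 0.74 to 0.91 for readers, 0.45 to 0.84 for Dnmt3a and 1.52 to 2.42 for the katanin genes.

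The groups share replicate numbers 1 and 2, which no label ties to a common batch. No co-culture array carries number 3, so with the number as a replicate block MSC replicate 3 had no bearing on the differences. These equalled the differences without that array: 22 of the 32 genes rose and 10 fell, as in the main fit, and the ARID median was 0.61. The block is therefore no separate check of the differences. Deviations from the group means correlated across probe sets at r = 0.22 for MSC and co-culture replicate 1, and at -0.32 for MSC replicate 2 and co-culture replicate 1.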

Other observations

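Some of these genes belong to the same protein complexes. The 4 complexes given here were chosen after the values had been seen, and few of their genes were in the table, so their counts are a description without a test. Of all 2190 genes 48.3% were higher and 51.7% lower. Of 15 genes listed for the INO80 remodeller 4 were in the table, and all 4 were higher in co-culture: the ATPase Ino80 rose by 0.73 ± 0.17 (SE), Uchl5, its associated deubiquitinase, by 0.86 ± 0.22, Ino80e by 0.77 ± 0.16 and Ino80d by 0.68 ± 0.19. Ino80 read 5.63, 5.42 and 5.66 in MSC alone and 6.28 and 6.32 in co-culture. Of 12 genes of the MOZ/MORF and HBO1 acetyltransferase complexes 5 were in the table. Ing5, Brd1, Meaf6 and Brpf1 were higher, by 1.09, 0.96, 0.78 and 0.66, and Jade2 fell by 1.22 ± 0.30.

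Of 23 CoREST and NuRD genes 5 were in the table and 4 were lower: Zmym2 fell by 1.39 ± 0.26, Mta3 fell by 0.97 ± 0.20, Hdac1 fell by 0.91 ± 0.18 and Phf21a fell by 0.63 ± 0.18. The histone-binding subunit Rbbp4, shared with several other complexes, rose by 0.58 ± 0.18. It rose by 0.52 without MSC replicate 1, with an adjusted p above 0.05 in limma, and by 0.48 without co-culture replicate 2. Of 29 SWI/SNF genes 4 were in the table. Smarcd3, Pbrm1 and Brd7 were lower, and fell by 1.09, 0.72 and 0.66; Pbrm1 and Brd7 belong to the PBAF form. Dpf2, a subunit of the BAF form, rose by 0.97 ± 0.20. The remaining genes of these complexes were not analysed here.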
